A study of Homo sapiens with 12 samples.

Results

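The mitochondrial ribosomal proteins described here were the 78 genes of the footprint count table whose symbols begin with MRPL or MRPS and a number, out of 13074 genes in all. Of them, 49 carried an MRPL symbol, for the large subunit of the mitochondrial ribosome, and 29 an MRPS symbol, for the small subunit. The symbol rule uses no measured value, and all 78 genes that match it passed the filter on low counts and were tested. Ribosome profiling, which sequences the stretches of mRNA that ribosomes protect from nuclease, was done on A375, an established human melanoma cell line. Control cells, labelled WT, and cells of 1 FTSJ1 knockout line, labelled KO1 in the titles and FTS1 KO as the genotype, were grown with 0 or 30 nM sodium selenite. This gave 4 groups of 3 libraries. FTSJ1 is a tRNA 2′-O-methyltransferase, and the study asked how loss of the methyl group at the wobble uridine of the selenocysteine tRNA affects selenoprotein translation. Whether the knockout line is a single clone, and whether replicate libraries were made from separate cultures, is not stated in the labels. The p-values therefore reflect only how far the deposited libraries of a group differ, which may be technical.

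The mitochondrial ribosome makes the few proteins encoded by mitochondrial DNA, all of them core subunits of the respiratory chain and ATP synthase. Its RNAs are encoded by mitochondrial DNA, while all of its proteins are encoded in the nucleus, translated by cytosolic ribosomes and imported. Some have a homologue in the bacterial ribosome and the others were added in mitochondria. The footprints described here therefore report cytosolic translation of the mRNAs of these proteins, and not protein synthesis inside mitochondria. Melanoma cells differ in how far they rely on oxidative phosphorylation, which depends on this ribosome. A few symbols do not follow the subunit they name: the proteins of MRPS30 and MRPS18A sit in the large subunit, and MRPS36 is known as a component of the 2-oxoglutarate dehydrogenase complex.

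Library totals were 951567 to 1543627 counts in 10 of the 12 libraries. The other two, replicates 2 and 3 of the knockout with selenite, held 636920 and 520989 counts, and results that use that group are also given without them. The members held 188 counts over the 12 libraries for MRPS36 up to 3878 for MRPL51, with a median of 1050.5. A count of 0 in 1 library allowed a level of up to 1.97 to 5.99 CPM (a gene's count scaled to its library's total, here 3 counts), a limit that covers counting error only. FTSJ1 itself lay at 50.5 ± 4.72 CPM (SD, n = 3) in control cells and 2.59 ± 3.3 CPM in knockout cells without selenite, and at 61 ± 9.85 and 5.31 ± 6.1 CPM with selenite. Of the melanocyte lineage markers, SOX10 lay at 221 to 545 CPM, S100B at 26.1 to 107 CPM and MITF at 20.6 to 75.2 CPM. DCT lay at 0 to 6.04 CPM, and PMEL, MLANA and TYR have no row in the table. The summed level of the 4 of 7 listed lineage markers in the table was 617 to 637 CPM in control and 281 to 371 CPM in knockout cells without selenite, and 580 to 681 and 467 to 601 CPM with selenite. Their part in the results was not tested. Of the defining markers of other cell types, PTPRC, EPCAM, PECAM1 and COL3A1 have no row, CD68 lay at 17.7 to 30.5 CPM, and VWF, DCN and LUM lay at or under 14 CPM.

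Footprints on mitochondrial ribosomal protein mRNAs were higher in the knockout than in control cells in both subunits. The summed level of the 49 MRPL genes was 3949.7 ± 153 CPM in control and 4526.8 ± 37.1 CPM in knockout cells without selenite (SD, n = 3), and 4019 ± 249 and 4747.7 ± 141 CPM with 30 nM selenite. That of the 29 MRPS genes was 2010.5 ± 25.5 and 2575.4 ± 55.8 CPM without selenite, and 1996.6 ± 31.8 and 2576.6 ± 69.4 CPM with it. The knockout sum thus stood 14.6% above control for MRPL and 28.1% for MRPS without selenite, and 18.1% and 29% with it. Every knockout library lay above every control library in both sums. Selenite moved the sums far less, by 1.75% and -0.691% in control cells and by 4.88% and 0.0466% in knockout cells, for MRPL and MRPS in turn. In bulk footprints, more mRNA per cell, more ribosomes on each mRNA and a change in the mix of cells cannot be told apart.

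**Figure D1:**
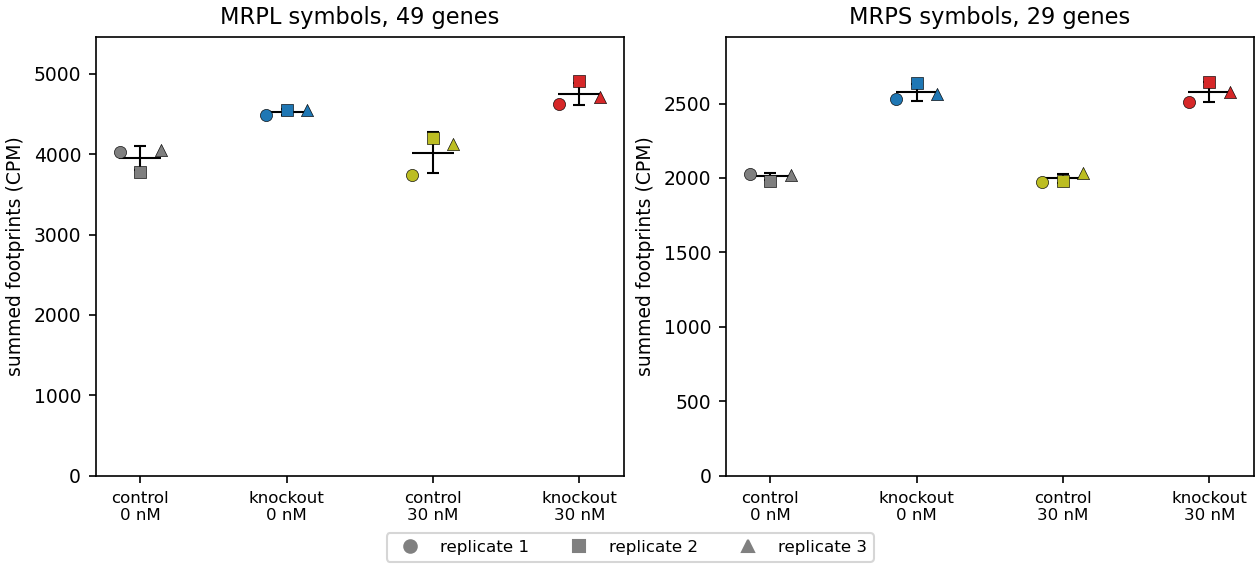
Summed footprints of the 49 MRPL genes (left) and the 29 MRPS genes (right) in CPM, by group; each point is a library, its shape the replicate number, and the bars are group mean and SD (n = 3). The knockout libraries of both panels lie above the control libraries, and the 30 nM groups lie close to the 0 nM groups of the same genotype.

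Without selenite, 22 of the 78 members were higher in the knockout and 1 was lower by edgeR's quasi-likelihood test at an adjusted p under 0.05 over all 10467 genes tested. Across all genes tested, 11.8% were higher and 12% were lower, so the members' 28.2% lay above the background for rises and their 1.28% below it for falls. Of the 22, 15 were MRPL and 7 were MRPS genes. The direction was shared more widely than the calls, as 68 of the 78 members had a log2 fold change above 0. The median log2 fold change was 0.25 over MRPL and 0.30 over MRPS, beside -0.0001 over all genes tested. The cytosolic ribosomal proteins, the corresponding proteins of the ribosome that produced these footprints, held 30 rises and 2 falls among 78 tested, with a median of 0.38.

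With 30 nM selenite, 33 members were higher and 11 lower in the knockout, beside 21.3% and 21.6% of all genes tested. The members' shares were 42.3% and 14.1%. The rises comprised 21 MRPL and 12 MRPS genes, and the falls 5 MRPL and 6 MRPS genes. The log2 fold change was above 0 in 55 of the 78, with medians of 0.33 over MRPL and 0.29 over MRPS beside -0.02 over all genes. Leaving out the 2 shallow libraries leaves 1 library in the knockout group with selenite, which is then assumed to vary like the other groups. In that fit 19 members were higher and 5 were lower, beside 1379 and 1391 of all 10467 genes, and all 44 members kept the sign of their change, with a median absolute log2 fold change of 0.581 against 0.575 with them. The knockout library left in that fit also took part in the calls, so the kept signs are partly built in. Over all 12 libraries, cytosolic ribosomal proteins held 44 rises and 4 falls among 78, with a median of 0.50.

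The 2 knockout comparisons share no library, but they set the same knockout line against the same control and were fitted with a shared spread. Of the 78 members, 16 rose in both, beside 8.53% of all genes tested that rose in both and 8.02% that fell in both. A single member, MRPL13, fell in both, and MRPS35 rose without selenite and fell with it. A further 5 members rose only in the comparison without selenite, 17 rose and 9 fell only in the one with selenite, and 29 passed in neither. All genes tested also passed more often with selenite, at 21.3% higher and 21.6% lower, against 11.8% and 12% without. The member counts do not by themselves show that a member responded differently with selenite, which is the interaction tested further on.

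**Figure D2:**
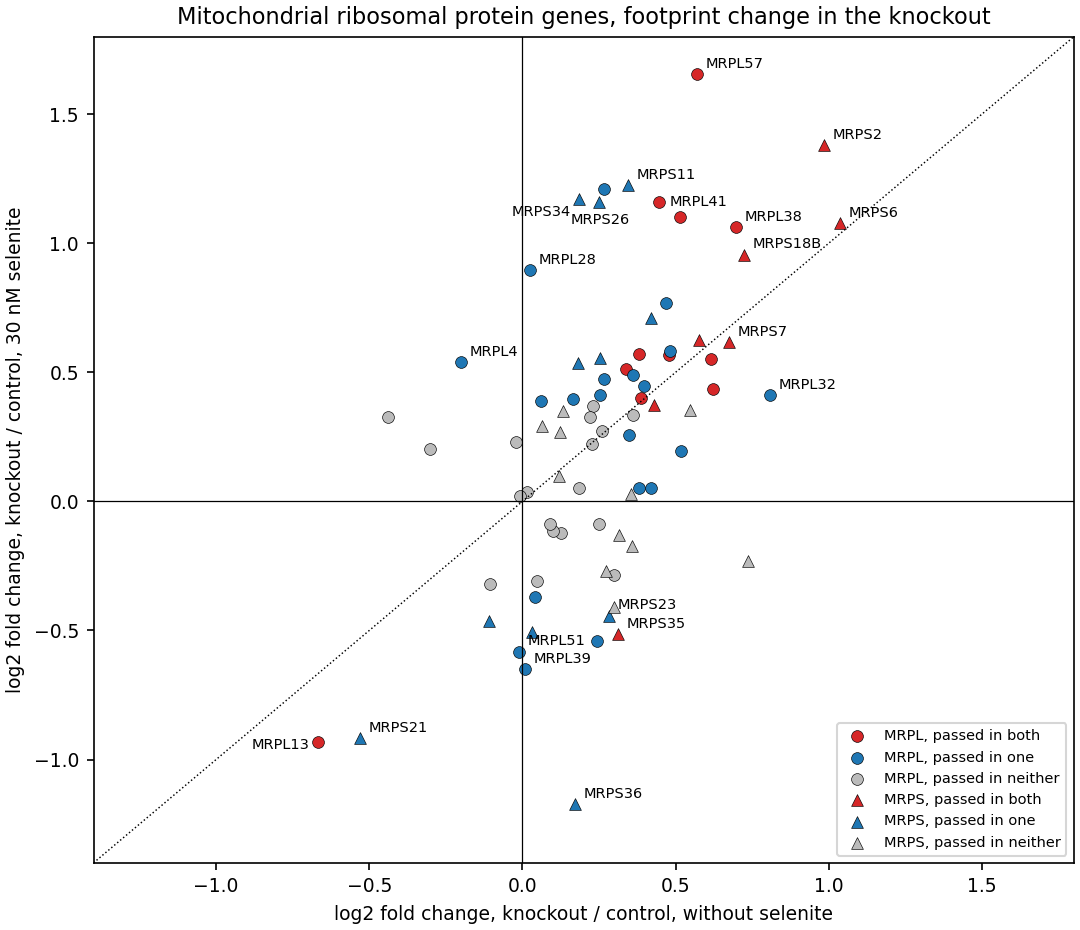
Log2 fold change, knockout over control, of each of the 78 members without selenite (x) and with 30 nM selenite (y); circles are MRPL and triangles MRPS genes, red, blue and grey mark adjusted p under 0.05 in both, 1 or neither comparison, and the dotted line marks equal change. Most points lie to the right of 0, the 16 that rose in both lie in the upper right, and MRPL13 lies alone among those that fell in both.

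MRPS2, a small-subunit protein with a bacterial homologue that sits between head and body, had the smallest adjusted p. Its level was 76, 76.2 and 75.9 CPM in control replicates 1 to 3 and 115, 174 and 165 CPM in the knockout without selenite. With selenite it was 74.3, 78.5 and 89.8 CPM in control and 196, 239 and 202 CPM in the knockout. The knockout libraries lay above all control libraries in both media, at 1.98-fold (log2 0.98 ± 0.14 SE, edgeR adjusted p = 8.7e-07) and 2.60-fold (log2 1.38 ± 0.15, 9.1e-10). The gene lies at chr9:135499965-135504673 (GRCh38.p14).

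MRPS6, a small-subunit protein of the platform with a bacterial homologue, had the largest rise among the members without selenite. Control libraries held 60, 50.8 and 73.8 CPM and knockout libraries 116, 136 and 129 CPM. With selenite they held 52.3, 75.4 and 76.3 CPM against 136, 111 and 190 CPM. The groups did not overlap in either medium, at 2.05-fold (log2 1.04 ± 0.17, adjusted p = 1.9e-05) and 2.11-fold (log2 1.08 ± 0.17, 1.4e-05). The span of MRPS6 at chr21:34073578-34143030 contains SLC5A3, a myo-inositol transporter gene that is also in the table, and how the authors counted reads where genes overlap is not given in the sources used here.

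MRPS18B is 1 of 3 human paralogs descended from a single bacterial small-subunit protein. It held 120, 87.1 and 104 CPM in control and 157, 175 and 183 CPM in knockout cells without selenite, and 99.7, 104 and 106 against 198, 233 and 170 CPM with it. The knockout was higher in every library, at 1.65-fold (log2 0.72 ± 0.13, adjusted p = 4.2e-05) and 1.94-fold (log2 0.96 ± 0.14, 5.2e-07). Its paralogs differed in their values. MRPS18A, whose protein sits in the large subunit, gave log2 0.06 ± 0.16 (adjusted p = 0.81) and 0.29 ± 0.16 (0.15). MRPS18C, whose protein takes the bacterial position in the small subunit, gave log2 0.74 ± 0.31 (0.079) and -0.23 ± 0.38 (0.65) at only 203 counts in all. The differences between paralogs were not tested.

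MRPS7, a protein of the head of the small subunit near the tRNA exit site, held 90, 120 and 111 CPM in control and 181, 168 and 163 CPM in knockout cells without selenite. With selenite the values were 105, 106 and 103 against 157, 184 and 142 CPM, again without overlap. The rise was 1.60-fold (log2 0.68 ± 0.13, adjusted p = 7.5e-05) and 1.53-fold (log2 0.62 ± 0.13, 3e-04). MRPL38, a mitochondria-specific protein of the central protuberance of the large subunit, held 39.3, 42.1 and 34 against 54.5, 76.6 and 58.1 CPM without selenite. With selenite it held 37.6, 53.1 and 49.1 against 92.8, 98.4 and 102 CPM, and the rise was 1.62-fold (log2 0.70 ± 0.17, 0.002) and 2.09-fold (log2 1.06 ± 0.17, 5.2e-06).

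MRPL13, a large-subunit protein with a bacterial homologue, was the member that fell in both comparisons. It held 225, 215 and 224 CPM in control and 167, 137 and 113 CPM in knockout cells without selenite. With selenite it held 192, 226 and 211 against 120, 103 and 99.8 CPM. All 6 knockout libraries lay below all 6 control libraries, with log2 fold changes of -0.67 ± 0.13 (adjusted p = 7.6e-05) and -0.93 ± 0.14 (7.3e-07). MRPS21, a small-subunit protein with a bacterial homologue, lay lower in the same way in its values, at log2 -0.53 ± 0.22 without selenite (0.081) and -0.92 ± 0.27 with it (0.0055), but passed only in the second.

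The remaining 11 members that rose in both comparisons changed less or less evenly. MRPL23, at the exit of the peptide tunnel, rose 1.53-fold and 1.47-fold. MRPL46, of the central protuberance, rose 1.54-fold and 1.35-fold, and the mitochondria-specific small-subunit protein MRPS25 rose 1.49-fold and 1.54-fold. MRPS27, a pentatricopeptide repeat protein, rose 1.35-fold and 1.30-fold, and MRPL58, a peptidyl-tRNA hydrolase built into the large subunit, rose 1.31-fold and 1.32-fold. MRPL2, which lies near the peptidyl transferase centre, rose 1.39-fold and 1.48-fold, MRPL16 rose 1.26-fold and 1.43-fold, and MRPL37 rose 1.30-fold and 1.48-fold. MRPL14, which faces the small subunit, rose 1.43-fold and 2.15-fold, MRPL41 1.36-fold and 2.24-fold, and MRPL57 1.48-fold and 3.15-fold. Adjusted p-values of these 11 were 0.0022 to 0.043 without selenite and 6.7e-08 to 0.034 with it.

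The 5 members that rose only without selenite were MRPL15, MRPL22, MRPL32, MRPL42 and MRPL45. MRPL32, a large-subunit protein matured by the m-AAA protease after import, held 34, 19.6 and 24.8 CPM in control and 41.2, 52.3 and 45.6 CPM in the knockout, at 1.75-fold (log2 0.81 ± 0.20, adjusted p = 0.0026). MRPL15 rose 1.43-fold, and MRPL22, which lines the peptide tunnel, 1.30-fold. MRPL42 rose 1.34-fold and MRPL45, which anchors the ribosome to the inner membrane, 1.27-fold. None of the 5 passed the interaction test.

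Without selenite, 7 of the 22 rises, those of MRPS2, MRPS6, MRPS18B, MRPS7, MRPS25, MRPL38 and MRPL15, and the fall of MRPL13, passed under all 21 alternative settings tried. Settings that leave out only libraries of the other groups keep all compared libraries in place, so calls pass those more easily. The count of rises depended on single libraries: it was 11 without control replicate 2 and 14 without control replicate 3 or any 1 of the 3 knockout libraries. The whole table lost calls too. Over all genes tested, rises numbered 911 and 981 without control replicates 2 and 3, against 1240 with all libraries. They numbered 955 to 1079 without 1 of the knockout libraries. With selenite, 16 of the 33 rises and 3 of the 11 falls, MRPL13, MRPL51 and MRPS22, passed under all alternatives.

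**Figure D3:**
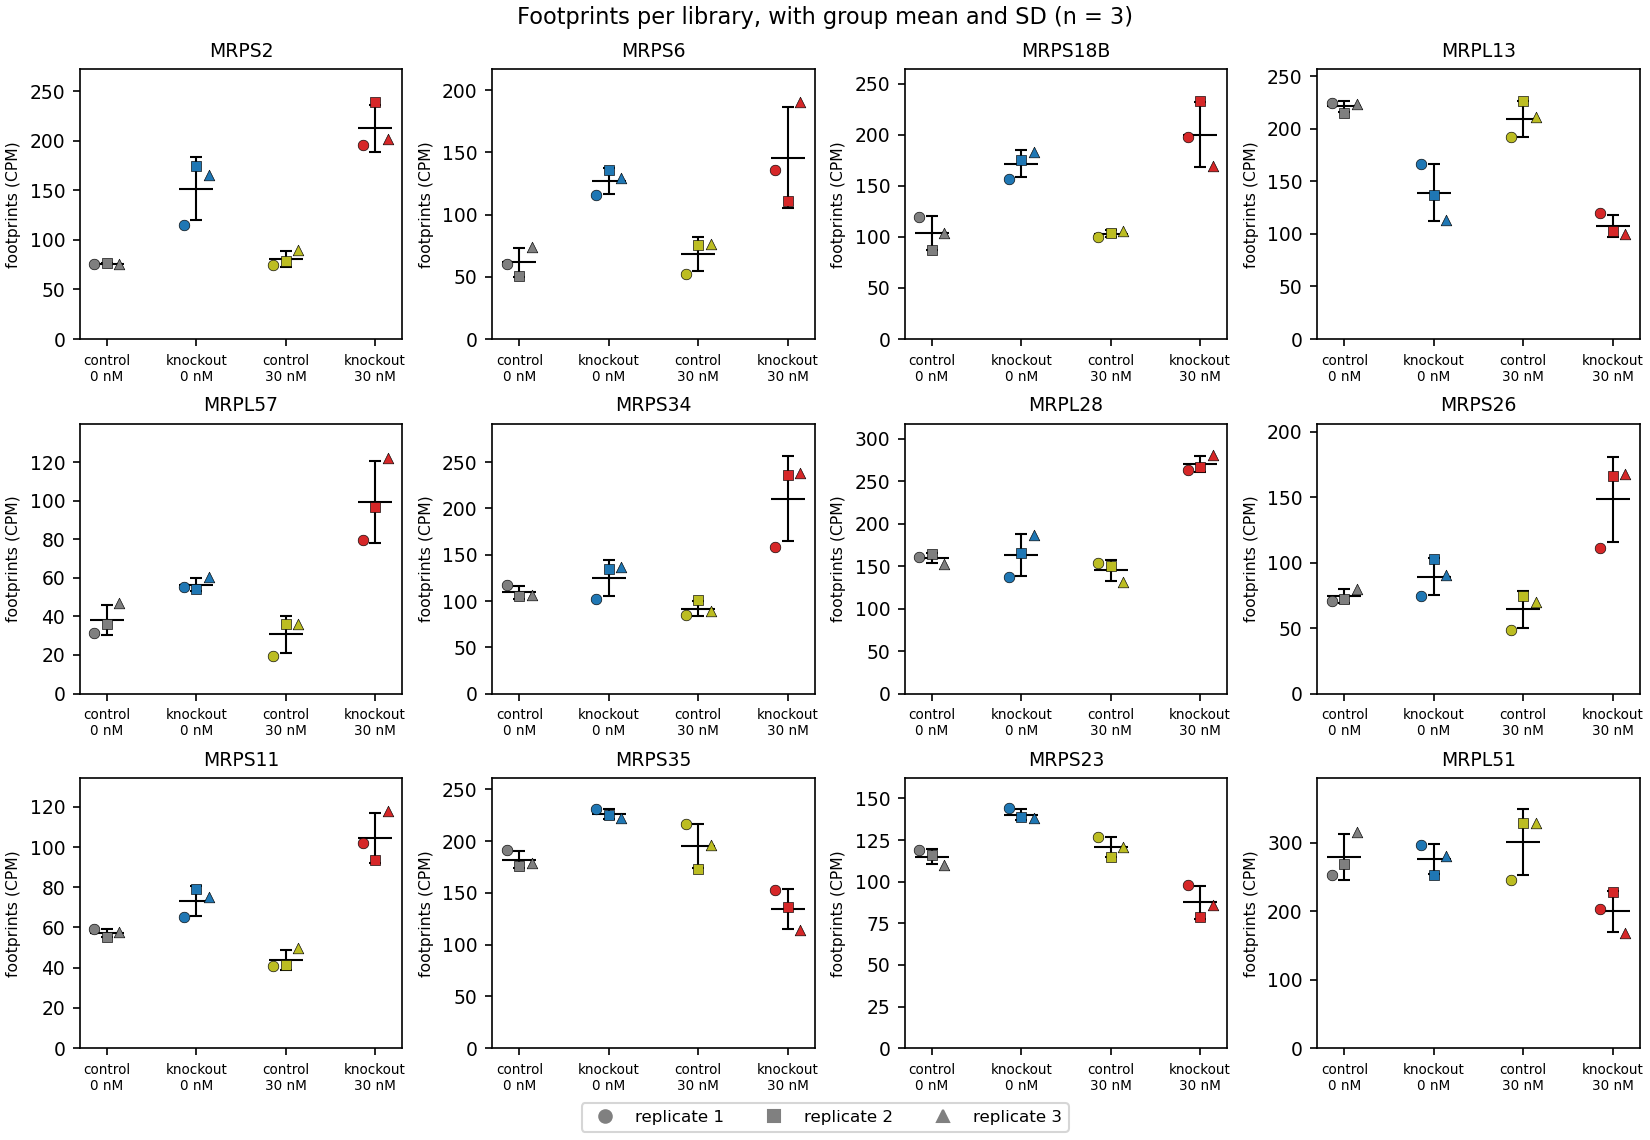
Footprints in CPM for 12 members, by group (control and knockout, 0 and 30 nM selenite); each point is a library, its shape the replicate number, and the bars are group mean and SD (n = 3). MRPS2, MRPS6 and MRPS18B are higher and MRPL13 lower in both knockout groups, and the other panels show members for which the knockout group with selenite stands apart.

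In control cells, 30 nM selenite changed no member by edgeR's test, beside 0.0191% of all genes tested that were higher and 0% that were lower. At an unadjusted p under 0.05, 1 member passed, MRPS11 at a log2 fold change of -0.37 ± 0.16. The share of all genes at that threshold was not taken. DESeq2 called 0 members, beside 2 higher and 0 lower of all genes tested. The log2 fold changes ran from -0.48 to 0.46, with 40 of the 78 above 0.

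In knockout cells, selenite split the members: 12 were higher and 9 lower, beside 10.2% and 10.3% of all genes tested. The members' shares of 15.4% and 11.5% lay near these. Of the cytosolic ribosomal proteins tested, 33.3% were higher and 5.13% lower. The 12 comprised 7 MRPL and 5 MRPS genes and the 9 comprised 5 and 4. The median log2 fold change was 0.10 over MRPL and -0.18 over MRPS. The summed MRPL level of the 3 libraries with selenite (4626.7 to 4902.9 CPM) lay above that of the 3 without (4484.4 to 4553.2 CPM), while the MRPS sums overlapped. Every one of these calls uses the 2 shallow libraries. Without them, with 1 library left in the group, 1 member was higher, MRPL28, and 0 were lower, by edgeR. The loss ran through the whole table, where 16 genes were higher and 29 lower in place of 1069 and 1080. All 21 members kept their sign, and their median absolute log2 fold change was 0.448 against 0.589. In all 21, the deeper replicate 1 with selenite lay beyond the range of the knockout libraries without selenite, and in 17 it was the nearest of the 3 to that range. Replicate 1 took part in these calls, so its side and the kept signs are partly built in. When the calls were made without replicate 1, 26 members passed, and replicate 1 lay on the same side in 25 of them (96.2%, against 95.1% of all 2728 genes so called). The calls and the side of replicate 1 were both measured from the same 3 knockout libraries without selenite. That agreement is therefore also partly built in. The median shift of replicate 1 was 0.349 on the log2 scale, against 0.668 in the shallow pair.

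The members higher with selenite in the knockout were led by MRPL34, a short protein of the large subunit, at 2.02-fold but only 212 counts in all. Its libraries held 12.6, 9.91 and 8.1 CPM without and 16.5, 31.1 and 18 CPM with selenite (log2 1.01 ± 0.33, adjusted p = 0.026). MRPL28 rose 1.66-fold, MRPL57 1.70-fold, MRPS34 1.65-fold and MRPS26 1.61-fold. MRPL38, MRPL4, MRPL41, MRPS12, MRPS11, MRPS2 and MRPL27 rose 1.34-fold to 1.55-fold. MRPS12 sits at the decoding centre and MRPL27 near the peptidyl transferase centre. The members lower with selenite were led by MRPS35 at 0.606-fold and MRPS23 at 0.636-fold. MRPL1, of the mobile stalk that helps release tRNA, was at 0.655-fold, MRPL39 at 0.665-fold, MRPS30 at 0.685-fold and MRPS22 at 0.702-fold. MRPL42, MRPL51 and MRPL47 were at 0.713-fold, 0.725-fold and 0.769-fold.

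The interaction, which tests whether the knockout difference itself differed between the media, was higher in 7 members and lower in 5, beside 3.76% and 3.69% of all genes tested. The members' shares were 8.97% and 6.41%, and those of the cytosolic ribosomal proteins 21.8% and 2.56%. Without the 2 shallow libraries, a fit in which that arm is 1 library and the other groups supply the spread, 0 members passed in either direction by edgeR, and 5 and 13 of all 10467 genes did. All 12 kept their sign, with a median absolute value of 0.588 against 0.782 with them. The library left in that arm took part in the calls, so the kept signs are partly built in. DESeq2 over all 12 libraries called 7 and 4 members, beside 331 and 269 of all 10467 genes. At an unadjusted p under 0.05 edgeR passed 19 members. The share of all genes at that threshold was not taken, so the 19 have no background to be read against. The count of members called by edgeR also fell to 2 and 1 without knockout replicate 1 grown without selenite. Over all genes tested it then fell to 57 and 56, from 394 and 386.

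MRPL28, a large-subunit protein with a bacterial homologue, had the smallest adjusted p of the 12. Without selenite control libraries held 161, 164 and 153 CPM and knockout libraries 137, 165 and 186 CPM, which overlap. With selenite they held 154, 150 and 131 against 263, 267 and 281 CPM, 1.86-fold higher in the knockout (log2 0.90 ± 0.12, adjusted p = 2.4e-07). The interaction was 0.87 ± 0.17 (0.0029). MRPL28 was also the only member whose selenite rise in the knockout passed under every alternative tried, and the adjusted p of its interaction was at most 0.058 under the alternatives.

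MRPS34, a mitochondria-specific small-subunit protein whose loss destabilises that subunit, showed the same pattern. Without selenite it held 117, 105 and 106 CPM in control and 102, 135 and 137 CPM in the knockout. With selenite it held 85, 101 and 89.1 against 158, 236 and 238 CPM, 2.25-fold higher (log2 1.17 ± 0.15, adjusted p = 9.4e-08), and the interaction was 0.99 ± 0.21 (0.0058). Its span overlaps that of EME2, which is also in the table.

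MRPS26, a mitochondria-specific protein of the small subunit, held 70.7, 72.6 and 80.2 against 74.4, 103 and 90.5 CPM without selenite and 48.2, 74.3 and 70.2 against 111, 166 and 168 CPM with it. The interaction was 0.91 ± 0.24 (adjusted p = 0.02). MRPS11, a platform protein with a bacterial homologue, held 59.3, 55.2 and 57.5 against 65.1, 79.3 and 75.1 CPM without selenite, and 40.8, 41.4 and 49.8 against 102, 93.4 and 118 CPM with it. Its interaction was 0.88 ± 0.22 (0.014), and the selenite groups lay apart by 2.34-fold. In both genes the 3 knockout libraries with selenite were the highest of all 12.

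MRPL57, a short mitochondria-specific large-subunit protein, had the largest interaction, 1.08 ± 0.29 (adjusted p = 0.02). It held 31.3, 36.3 and 46.8 against 55.1, 54.1 and 60.4 CPM without selenite and 19.6, 36.1 and 36.2 against 79.7, 96.7 and 122 CPM with it. The knockout was thus higher in both media, and by more with selenite. RefSeq lists 8 pseudogenes named after MRPL57, and how reads that fit several places were counted is not given in the sources used here. The interaction of MRPL57 gave an adjusted p over 0.05 in 7 of 20 alternatives. MRPL41 gave 0.71 ± 0.21 (0.03), lost in 10 of 20, and MRPL4, which lines the peptide tunnel, 0.74 ± 0.22 (0.032). MRPL4 held 99.3, 79.9 and 90.1 against 75, 76.6 and 83.2 CPM without selenite and 78.4, 91.3 and 80 against 99.4, 108 and 168 CPM with it, so that 1 library, knockout replicate 3 with selenite, stood well above the rest. Its interaction gave an adjusted p over 0.05 in 11 of 20 alternatives, among them the one without that library.

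Among the 5 lower interactions, MRPS35 changed direction. It held 191, 176 and 179 CPM in control and 231, 225 and 222 CPM in knockout cells without selenite, 1.24-fold higher (log2 0.31 ± 0.12, adjusted p = 0.044). With selenite it held 216, 173 and 196 against 153, 136 and 114 CPM, 0.70-fold (log2 -0.51 ± 0.13, 0.001). The groups lay apart in both media, in opposite directions, and the interaction was -0.83 ± 0.17 (0.0049). The rise without selenite was lost in 10 of 21 alternatives, with every single omission of a library of those 2 groups among them. The fall was lost only without both shallow libraries (adjusted p = 0.07).

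MRPS23, another mitochondria-specific small-subunit protein, held 119, 116 and 110 against 144, 139 and 138 CPM without selenite (log2 0.28 ± 0.12, adjusted p = 0.086). With selenite it held 127, 115 and 121 against 98.1, 78.7 and 85.8 CPM (log2 -0.44 ± 0.13, 0.0074), and the interaction was -0.73 ± 0.18 (0.015). MRPL51, a mitochondria-specific large-subunit protein, overlapped between genotypes without selenite, at 253, 268 and 316 against 296, 253 and 280 CPM. With selenite it held 245, 328 and 329 against 203, 228 and 168 CPM (log2 -0.58 ± 0.13, 0.00031). Its interaction was -0.57 ± 0.17 (0.037), lost in 10 of 20 alternatives. MRPL39 and MRPS22, both mitochondria-specific, gave -0.66 ± 0.20 (0.041) and -0.54 ± 0.17 (0.042), values that gave an adjusted p over 0.05 in 13 and 15 of 20 alternatives.

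Other falls in the knockout with selenite were those of MRPS36, MRPL1, MRPS14 and MRPL47. MRPS36 held 13.9, 22.3 and 15.9 CPM in control and 8.56, 6.56 and 5.99 CPM in the knockout, a log2 fold change of -1.17 ± 0.36 (adjusted p = 0.0084) on few counts. MRPS14, of the small-subunit head, fell by 0.46 on the log2 scale (0.011), MRPL1 by 0.54 (0.026) and MRPL47 by 0.37 (0.026). MRPS30, the other MRPS symbol of the large subunit, gave 0.36 ± 0.14 without selenite (0.065) and -0.17 ± 0.16 with it (0.41). MRPL43, at 277 counts in all, was 2.32-fold higher with selenite (log2 1.21 ± 0.29, 0.001), and its span overlaps that of SEMA4G.

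Rises were found among proteins with a bacterial homologue and among mitochondria-specific proteins. Without selenite, 7 of 29 MRPL genes with a bacterial homologue and 8 of 19 mitochondria-specific MRPL genes were higher (24.1% and 42.1%, beside 11.8% of all genes tested), with medians of 0.24 and 0.27 on the log2 scale. Among MRPS genes with a bacterial homologue, 3 of 16 were higher (18.8%), with a median of 0.29, and among the mitochondria-specific ones 4 of 10 (40%), with a median of 0.31. MRPS18B, which was higher, was listed as mitochondria-specific although it descends from a bacterial protein, so these shares depend on how it is placed. All 5 members whose interaction was lower were mitochondria-specific, 2 MRPL and 3 MRPS genes. Higher interactions were found in both classes: 2 MRPL and 2 MRPS genes were mitochondria-specific, and 2 MRPL and 1 MRPS genes had a bacterial homologue. Of all genes tested, 3.76% had a higher and 3.69% a lower interaction. No difference between these classes was tested.

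Other lists of the mitochondrial translation apparatus are set beside the shares of all genes tested, 11.8% higher and 12% lower without selenite and 21.3% and 21.6% with it. The 5 proteins of the mitochondrial ribosome with other symbols gave log2 fold changes of 0.15 to 0.32 without selenite, with adjusted p of 0.059 to 0.56. With selenite 3 rose: GADD45GIP1 (0.82 ± 0.13, adjusted p = 3.2e-06), AURKAIP1 (0.72 ± 0.14, 7.6e-05) and CHCHD1 (0.56 ± 0.21, 0.028). DAP3, a GTP-binding protein of the small subunit, gave 0.32 ± 0.13 (0.059) without selenite and -0.25 ± 0.13 (0.13) with it, an interaction of -0.57 ± 0.18 (0.049). Of 26 factors of ribosome assembly and rRNA modification, 7 rose (26.9%) and 0 fell without selenite, with a median log2 fold change of 0.27, and 10 rose (38.5%) and 1 fell (3.85%) with it, with a median of 0.43. The rRNA methyltransferase MRM3 (0.70, 0.0019), the pseudouridine synthase TRUB2 (0.56, 0.00037) and the GTPase GTPBP10 (0.72, 0.0011) were among the first. TRUB2 (0.79, 2.2e-06), the rRNA methyltransferase MRM1 (1.47, 9.3e-05) and the helicase DDX28 (1.11, 4.2e-05) were among the second.

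Of 12 translation factors, 4 rose (33.3%) and 0 fell without selenite, with a median of 0.11. With it 3 rose (25%) and 2 fell (16.7%), shares near those of all genes, with a median of 0.05. The elongation factors GFM1 (0.49, adjusted p = 0.0048) and TSFM (0.44, 0.012), the recycling factor MRRF (0.59, 0.025) and the insertase OXA1L (0.44, 0.012) rose without selenite. TSFM (0.81, 1.5e-05), OXA1L (0.67, 0.00022) and the elongation factor TUFM (0.50, 0.00063) rose with it, where GFM2 fell by 0.51 on the log2 scale (0.01) and the initiation factor MTIF3 by 1.07 (0.026). Of 20 genes of mitochondrial transcription and RNA maintenance, 5 rose (25%) and 0 fell without selenite, with a median of 0.23. With it 5 rose (25%) and 2 fell (10%), with a median of -0.01 and 10 of 20 above 0. TRMT10C (0.41, 0.0074), a subunit of mitochondrial RNase P, and TBRG4 (0.42, 0.0079) rose in the first. The mitochondrial RNA polymerase POLRMT (1.18, 3.3e-06) rose in the second, where LRPPRC, which stabilises mitochondrial mRNAs, fell by 0.51 on the log2 scale (0.00068).

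The direction of the selenite change in the knockout went with where the genes lie. Members higher with selenite had a median of 57 protein-coding genes with a midpoint within 1 Mb of their own (themselves included, range 15 to 83), and members lower with selenite had a median of 13 (range 3 to 50). Spearman's rho between this gene density and the log2 fold change was 0.533 over the 78 members and 0.432 over 10463 genes tested, so the relation is a feature of the whole table. Over the members it was -0.103 in the knockout comparison without selenite, 0.358 in the one with selenite and 0.479 in the interaction. The members' median density was 29 genes, against 21 over all genes tested, members included. These correlations run across genes of the same libraries, and genes are not independent replicates. With the trend on gene density removed from every comparison, 5 members were higher and 6 lower with selenite in the knockout, and the interaction held 3 and 3. Over all genes tested, selenite in the knockout then gave 588 higher and 639 lower, against 1069 and 1080. The interaction gave 176 and 185, against 394 and 386.

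**Figure D4:**
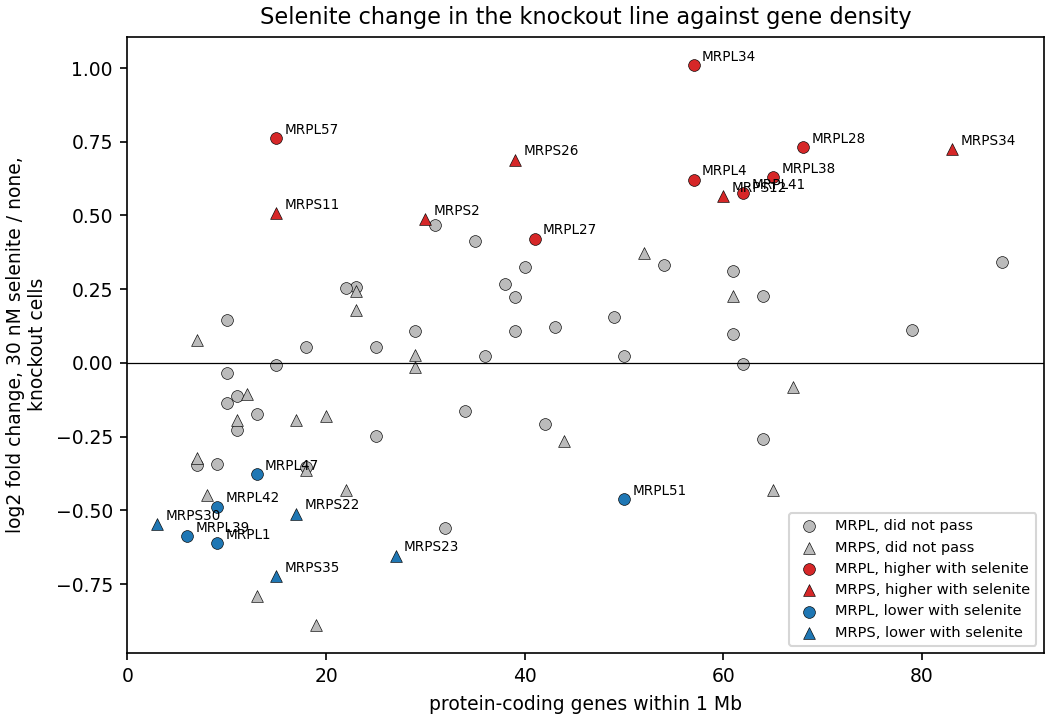
Log2 fold change of each of the 78 members in knockout cells, 30 nM selenite over none (y), against the number of protein-coding genes within 1 Mb (x); circles are MRPL and triangles MRPS genes, red and blue mark adjusted p under 0.05 above and below 0, and grey the rest. Red points lie mostly in dense and blue points mostly in sparse surroundings, with MRPL57, MRPS11 and MRPL51 as exceptions.

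Promoter windows of 300 bases, from 250 before to 50 after the start, were taken from RefSeq (GRCh38.p14) for the 70 members that have one there. The GC content of the windows also went with the selenite change in the knockout. Its median was 70.5% in members higher with selenite and 56% in members lower with it. Spearman's rho with the log2 fold change was 0.353 over the 70 members and 0.106 over 8712 genes tested. Genes are not independent replicates here either, and no cause was tested. Motifs were searched as fixed letters on both strands. CCGGAAG, the core bound by ETS factors such as GABP, occurred in 29 of 70 members (41.4%), against 18.8% of 10716 promoters of genes in the table. AAGATGGC, bound by YY1, occurred in 20 of 70 (28.6%) against 5.16%. GCGCANGCG, bound by NRF1, occurred in 18.6% against 14.6%, the GC box GGGCGG in 60% against 69.3%, and the TATA box TATAAA in 4.29% against 6.11%. The ETS and YY1 letters occurred together in 8 member promoters and overlapped in 0. Of 19 members with a window that were higher in the knockout without selenite, 3 held the ETS and 9 the YY1 letters. Of 51 with no call, 26 and 11 did. With selenite the YY1 letters did not mark the rises: of 30 higher members, 9 held the ETS and 7 the YY1 letters. Of 30 with no call there, 15 and 11 did, and of 10 lower members 5 and 2. These differences were not tested.

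These 4 windows are shown because their genes had interactions of opposite sign or share a promoter. MRPS34 and MRPL51 both hold ETS letters, and their interactions were 0.99 and -0.57. MRPL46 and MRPS11 are transcribed away from each other, and their windows share 181 bases at chr15:88467458-88467638. Both lay higher in the knockout with selenite, MRPL46 1.35-fold and MRPS11 2.34-fold. MRPL46 held 70.4, 71.2 and 75.1 CPM in the knockout without selenite and 70.4, 68.8 and 77.9 CPM with it, so it did not share the rise of MRPS11 with selenite, and the difference between the 2 genes was not tested. Each window is written 5′ to 3′ on the strand of its gene, with matches to the ETS, NRF1 and YY1 letters on either strand in capitals. They lie at chr16:1773085-1773384 (MRPS34, minus strand), chr12:6493213-6493512 (MRPL51, minus), chr15:88467339-88467638 (MRPL46, minus) and chr15:88467458-88467757 (MRPS11, plus).
MRPS34: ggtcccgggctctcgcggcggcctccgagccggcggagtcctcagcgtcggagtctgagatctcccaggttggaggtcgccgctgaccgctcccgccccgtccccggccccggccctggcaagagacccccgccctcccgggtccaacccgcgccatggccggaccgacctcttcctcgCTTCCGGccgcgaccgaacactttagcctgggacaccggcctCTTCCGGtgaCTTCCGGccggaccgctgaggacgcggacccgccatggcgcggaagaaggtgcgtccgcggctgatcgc
MRPL51: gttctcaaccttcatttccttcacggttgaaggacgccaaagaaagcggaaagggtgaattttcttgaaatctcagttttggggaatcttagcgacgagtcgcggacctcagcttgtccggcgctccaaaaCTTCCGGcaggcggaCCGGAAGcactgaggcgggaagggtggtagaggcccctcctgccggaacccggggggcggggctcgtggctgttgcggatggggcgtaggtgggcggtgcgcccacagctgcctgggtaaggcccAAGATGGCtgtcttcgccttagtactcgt
MRPL46: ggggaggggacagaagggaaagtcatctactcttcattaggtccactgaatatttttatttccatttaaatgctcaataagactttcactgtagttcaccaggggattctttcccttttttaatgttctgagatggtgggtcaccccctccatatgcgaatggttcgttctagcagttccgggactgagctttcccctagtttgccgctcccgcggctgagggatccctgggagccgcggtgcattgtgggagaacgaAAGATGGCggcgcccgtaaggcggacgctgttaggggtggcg
MRPS11: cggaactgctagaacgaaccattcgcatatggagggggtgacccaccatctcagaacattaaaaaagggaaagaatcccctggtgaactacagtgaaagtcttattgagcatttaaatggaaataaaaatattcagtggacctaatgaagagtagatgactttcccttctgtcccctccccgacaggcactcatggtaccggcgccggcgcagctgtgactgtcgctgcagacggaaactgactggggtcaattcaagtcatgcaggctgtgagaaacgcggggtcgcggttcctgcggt
MRPS34 holds 3 ETS matches, MRPL51 holds 2 ETS matches and 1 YY1 match, MRPL46 holds 1 YY1 match and MRPS11 holds 0 of these. The matches describe letters in these windows and do not show that a factor binds there.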

How the data were processed

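Per the labels' protocols, A375 cells were lysed with cycloheximide and tigecycline, RNase I footprints were size-selected and ribosomal RNA was depleted. The authors deposited raw footprint counts per gene. The submitters' processing notes name Trim Galore 0.6.10, STAR 2.7.9a, DESeq2 and GRCh38; the counter, the annotation and the use of molecular identifiers are not given in the sources used here. A normalized table was not used.

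Tests used edgeR 4.0.16 under R 4.3.3 (TMM, filterByExpr with a minimum count of 10 and total of 15, robust quasi-likelihood fits, 1 coefficient per group over 12 libraries). Contrasts were adjusted by Benjamini-Hochberg over 10467 genes, threshold 0.05. Standard errors follow from the F statistic and are approximate. CPM uses TMM-scaled totals. DESeq2 1.42.0, other filters, scalings, omitted libraries and removed trends on gene density and promoter GC were alternatives. The symbol rule and the lists were chosen with earlier results of these data known. Named members were those past the threshold with the largest changes, those called in both knockout comparisons or in the interaction, and the MRPS symbols outside the small subunit. Symbols matched the GRCh38.p14 gene table for 77 members and a synonym for 1. No coding lengths were used, so levels are not compared between genes. RefSeq names pseudogenes after 42 members, among them MRPS21 (9), MRPL57 (8) and MRPS36 (6). Another gene of the table overlaps 14 members, among them MRPS6, MRPS7, MRPS34, MRPL14, MRPL34 and MRPL43.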

Additional observations from a re-analysis of the deposited data

Results flagged for a closer look

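The knockout difference changed between media in 12 members by the interaction test (log2 scale, edgeR adjusted p under 0.05 over all genes). It was higher with selenite for MRPL57 (1.08), MRPS34 (0.99), MRPS26 (0.91), MRPS11 (0.88), MRPL28 (0.87), MRPL4 (0.74) and MRPL41 (0.71). It was lower for MRPS35 (-0.83), MRPS23 (-0.73), MRPL39 (-0.66), MRPL51 (-0.57) and MRPS22 (-0.54). Each of these calls used all knockout libraries grown with selenite, the deeper replicate 1 included. Without the 2 shallow knockout libraries grown with selenite, which leaves that group with 1 library, 0 of the 12 passed and all 12 kept their sign. In that fit the whole table held 5 higher and 13 lower genes.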

How the results depend on the processing

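No called member changed sign under any alternative, and scaling by DESeq2's size factors within edgeR left all 10 counts as they were. For knockout against control without selenite, rises numbered 11 with DESeq2 and 10 with counts thinned to the smallest total, and 11 to 25 with 1 library left out, with falls at 1 throughout. The whole table held 840 rises with DESeq2 and 640 of 8236 genes with thinned counts, against 1240 of 10467. With selenite, falls numbered 7 with DESeq2, 7 with thinned counts and 7 with the gene density trend removed. The whole table held 1632, 1539 (of 8236 genes) and 2038 falls there, against 2266. Without both shallow libraries, rises and falls numbered 19 and 5. With 1 library left out they ranged from 23 to 33 and 9 to 11. For selenite in the knockout, rises and falls numbered 1 and 0 without both shallow libraries, rises numbered 5 with the density trend removed, and they ranged from 6 to 14 and 3 to 12 with 1 library left out (6 and 3 without knockout replicate 1 grown without selenite, and 5 falls without knockout replicate 3 grown with it). The interaction held 3 rises and 2 falls with thinned counts, 0 and 0 without both shallow libraries, 3 and 3 with the density trend removed, and 3 falls with the promoter GC trend removed, an alternative chosen after seeing the data. With 1 library left out it ranged from 2 to 7 rises and 1 to 7 falls. Over the whole table the interaction held 394 rises and 386 falls, and 241 and 191 of 8236 genes with thinned counts. Without knockout replicate 1 grown without selenite it held 57 and 56. Fewer samples or reads enter the fits that leave libraries out or thin them, and for the other settings the cause was not tested. Selenite in control cells gave 0 and 0 throughout. Depth limits the members of few counts, such as MRPS36 (188), MRPS18C (203) and MRPL34 (212).

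Replicate numbers are shared between groups. Same-numbered libraries correlated at -0.035 to 0.276 over 18 pairs, 7 of them over 0.1, and 10 of 12 libraries correlated best with their own number. What libraries of 1 number share is not stated in the labels, and the main fits held no replicate term. With such a term, the interaction over all genes tested held 645 rises and 623 falls, against 394 and 386. With the replicate number as a block, rises and falls among the members numbered 26 and 1, 34 and 11, 0 and 0, 14 and 11, and 7 and 6, in the order of the comparisons. Over all genes tested, the comparisons before the interaction then held 1406 and 1405, 2371 and 2408, 5 and 0, and 1294 and 1309. Without the block they held 1240 and 1261, 2228 and 2266, 2 and 0, and 1069 and 1080. A trend on coding length was planned and not run.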
